A study of Homo sapiens with 30 samples.

Results

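Genes that carry out or report WNT signalling were followed across human H9 embryonic stem cells, an established line, in culture states that stand for early and later stages of the epiblast. The 10 genes were taken by symbol from count tables of 28307 genes, and all 10 were present. They are the DNA-binding factors TCF7, LEF1, TCF7L1 and TCF7L2, the feedback inhibitors AXIN2 and NKD1, the target transcription factor SP5, the membrane ubiquitin ligases RNF43 and ZNRF3, and the R-spondin receptor LGR5.

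WNT ligands bind Frizzled receptors, which stops a destruction complex built on AXIN from degrading β-catenin. β-Catenin then enters the nucleus and binds TCF/LEF factors, whose target genes include AXIN2, NKD1, SP5, RNF43 and ZNRF3, most of which restrain the signal again. TCF7L1 acts mainly as a repressor in pluripotent cells, and RNF43 and ZNRF3 remove Frizzled from the cell surface unless R-spondin and an LGR receptor hold them back.

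The series held 30 RNA-seq libraries of total RNA, in 10 groups of 3, with 31190052 to 65637976 counts each. Primed WT cells grew on Matrigel in mTeSR1. NaiveCult WT and PXGL WT cells were reset from primed H9 cells and grew on inactivated mouse embryonic fibroblasts, and the composition of the NaiveCult medium is not stated in the sources used here. PXGL medium contained LIF, the MEK inhibitor PD0325901, the protein kinase C inhibitor Gö6983 and XAV939, a tankyrase inhibitor that stabilises AXIN, so every PXGL group was cultured with an inhibitor of the pathway described here. XACT KO cells, from 3 clones with a deletion at the start of XACT, were made in the primed state and reset in NaiveCult. XIST KO cells, 3 replicates of 1 clone, were in PXGL. CRISPRi XIST UT and CRISPRi XIST Dox cells were clones carrying an inducible dCas9-KRAB and a guide to the XIST promoter, without and with doxycycline, in PXGL. siScr, siSPEN1 and siSPEN2 were PXGL cells transfected with scrambled siRNA or with either of 2 siRNA mixes against SPEN.

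The study's reporting summary describes the 3 libraries of a group as biological replicates, other than those of XIST KO, which were technical replicates, so tests on XIST KO rest in that group on technical spread. The targeted RNAs followed the labels. Levels are given as CPM, a gene's counts scaled by the total counts of its library. SPEN averaged 330.0 ± 46.3 CPM in siScr, 162.6 ± 13.0 in siSPEN1 and 157.1 ± 8.28 in siSPEN2 (SD, n = 3). XIST averaged 899.7 ± 1.56 CPM in PXGL WT and 0.333 ± 0.140 in XIST KO. In CRISPRi XIST Dox the libraries spread from 6.52 to 169.7 CPM of XIST, below the 642.4 to 697.5 CPM of CRISPRi XIST UT. XACT averaged 1.71 ± 0.53 CPM in NaiveCult WT and 0.067 ± 0.063 in XACT KO. The 7 naive markers summed to 26.19 to 31.95 CPM in Primed WT, with KLF17 and DNMT3L at 0, and to 2151 to 3268 CPM in the 9 other groups. The 5 trophectoderm markers summed to 294.8 to 376.0 CPM in NaiveCult WT and 25.27 to 27.92 in PXGL WT. The NaiveCult WT sum was mostly CGA, at 267.2, 236.5 and 308.8 CPM, against 2.653, 2.228 and 2.487 in PXGL WT. Of the 5 markers tested in PXGL WT against NaiveCult WT, 3 were lower and 0 higher, with a median log2 fold change of -1.25. The 6 fibroblast markers summed to 57.68 to 63.50 CPM in Primed WT, 16.07 to 28.25 in NaiveCult WT and 3.271 to 3.877 in PXGL WT, with LUM at 0 in PXGL WT. The Primed WT sum was mostly COL1A2, at a mean of 53.40 CPM. In NaiveCult WT against Primed WT, 3 of the 6 were higher, COL3A1 (11.81 against 0.110 CPM), LUM (4.37 against 0.0538 CPM) and DCN (0.242 against 0.00508 CPM). COL1A1 and COL1A2 were lower, so the lower sum stood over a list that went both ways. The part of such cells in the differences below was not tested. In these bulk libraries, fewer cells of a type and less RNA per cell cannot be told apart.

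The promoters of 2 of the genes are shown because TCF7L1 had the largest difference between culture states and because SP5 held the most TCF/LEF motif matches. Each window is the 250 bases before a RefSeq start in GRCh38.p14, both on the plus strand, at chr2:170715087-170715336 for SP5 and chr2:85133142-85133391 for TCF7L1. In the GENCODE annotation of the same build, SP5 spans positions 170715337 to 170718078 and TCF7L1 positions 85133392 to 85310387 of chromosome 2, so both windows end at the base before the gene. Capitals mark matches to the motif AACAAAG, to its variant ATCAAAG, to the variant TACAAAG or else to the variant TTCAAAG, on either strand.
SP5: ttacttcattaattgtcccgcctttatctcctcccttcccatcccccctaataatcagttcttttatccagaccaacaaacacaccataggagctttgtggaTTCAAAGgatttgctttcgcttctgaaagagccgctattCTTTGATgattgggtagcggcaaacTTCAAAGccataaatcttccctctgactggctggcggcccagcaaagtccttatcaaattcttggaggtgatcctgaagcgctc
TCF7L1: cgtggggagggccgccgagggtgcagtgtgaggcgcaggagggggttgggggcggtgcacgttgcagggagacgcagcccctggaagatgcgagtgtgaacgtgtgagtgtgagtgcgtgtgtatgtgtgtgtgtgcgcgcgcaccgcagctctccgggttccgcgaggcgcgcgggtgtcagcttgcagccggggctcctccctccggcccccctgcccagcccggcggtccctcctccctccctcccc
The SP5 window held 3 matches, a number reached by 0.122% of the 35116 RefSeq starts, while 12% of starts held at least 1. TCF7L1 held none of these letters. RefSeq windows were matched for 6 of the 10 genes, at 10 starts. Among these, a start of TCF7 and a start of TCF7L2 held 1 match each, and SP5 was picked for holding the most. A match is a description of the sequence and not a measured binding site.

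Per kilobase of annotated exons, ZNRF3, TCF7L2 and TCF7L1 were the 3 highest members in Primed WT, at 6.61, 5.92 and 5.85 CPM per kilobase. AXIN2 and ZNRF3 led in NaiveCult WT, at 15.3 and 7.71, and in PXGL WT, at 17.2 and 16.7. LEF1 and LGR5 were the lowest in all 3 of these groups. The exon lengths were those of the GENCODE annotation, while the study counted reads over another annotation file, so this order is approximate. LEF1, the lymphoid enhancer factor, had 1 to 37 counts per library, and its group ranges overlapped at every step of their order. LGR5 had 0 to 12 counts per library, 100 in all 30 libraries together, and was at 0 in 4 of them, where 3 counts would stand for 0.0556 to 0.0732 CPM. Its highest library was 1 of Primed WT, whose libraries were at 0.0588, 0.237 and 0.168 CPM, and the siScr libraries overlapped them at 0.0951, 0.144 and 0.194 CPM. LGR5 did not pass the filter on low counts in any comparison, so no difference in it was tested.

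**Figure D1:**
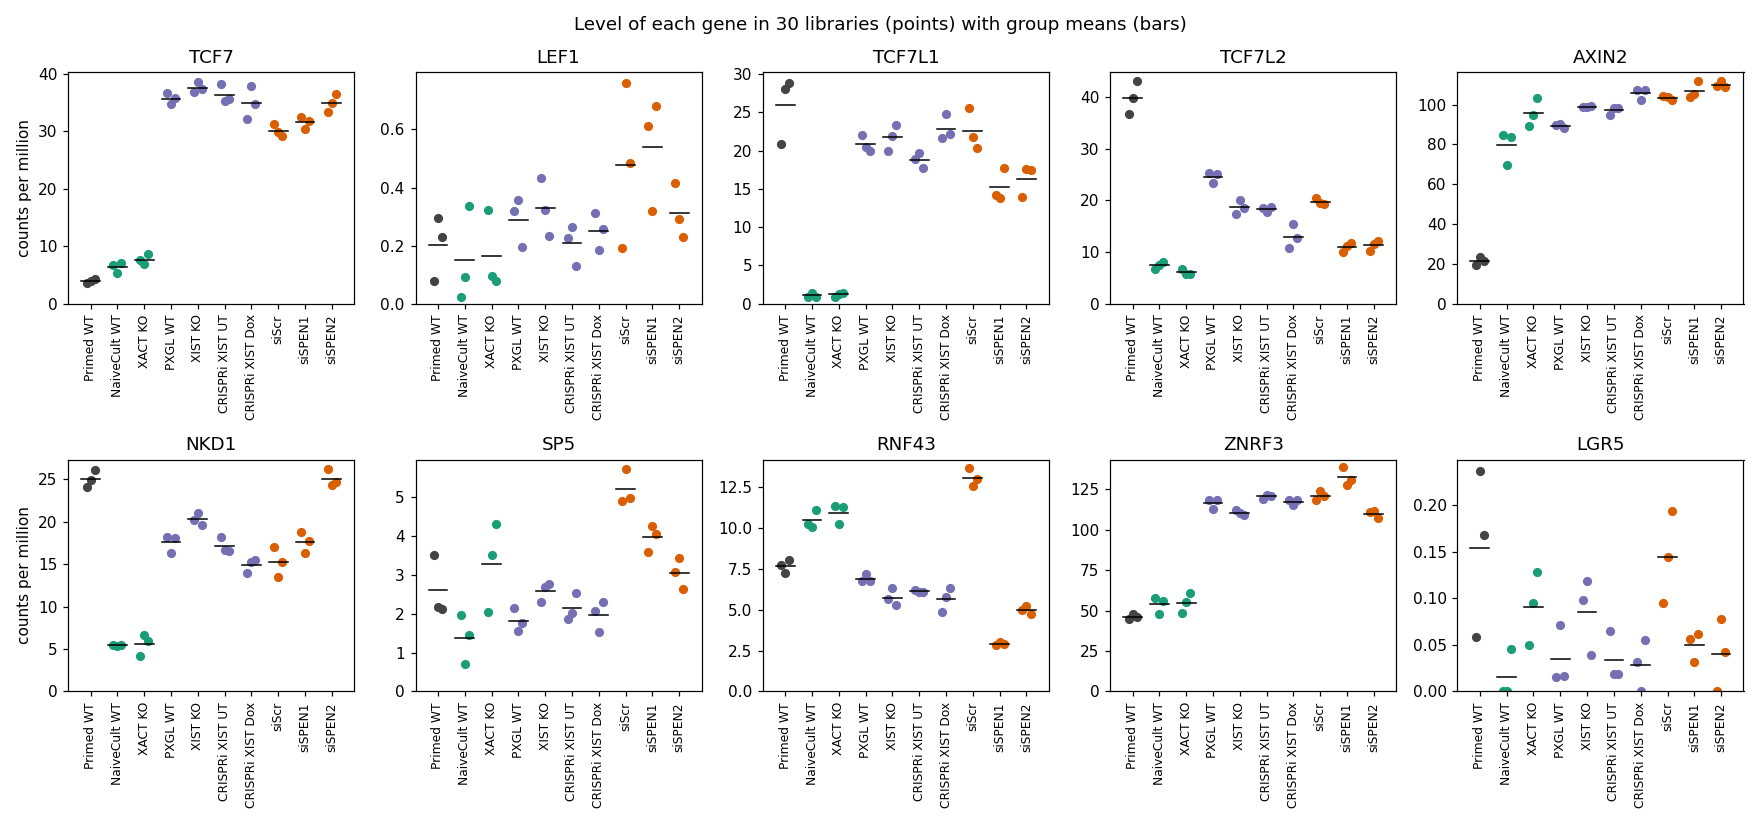
Level in CPM (vertical axis, from 0, scaled per gene) of each of the 10 genes in 30 libraries. Points are libraries and bars are means of 3; AXIN2 is at 19.35 to 23.67 in Primed WT and at 69.76 or more in all other groups, and TCF7L1 is at or below 1.44 in NaiveCult WT and XACT KO.

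The first comparison asked how the genes differ between primed and naive cells of the same file-name series. A member is called higher or lower at an adjusted p below 0.05 in edgeR's quasi-likelihood test, adjusted over all genes tested. NaiveCult WT against Primed WT left 9 members tested. 4 were higher, where 42.5% of 18663 genes were higher, and 4 were lower, where 43.0% of genes were. Most genes of the table passed, so the counts of members stand near this background. The median log2 fold change of the members was -0.23, beside -0.01 for all genes tested.

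Among the DNA-binding factors, the repressor TCF7L1 had the largest difference. It was at 20.82, 28.09 and 28.89 CPM in Primed WT and at 0.927, 1.44 and 0.90 CPM in NaiveCult WT. The groups were far apart, and TCF7L1 was 21.4-fold lower in NaiveCult WT (log2 fold change -4.42, SE 0.17, adjusted p = 1.2e-11). TCF7L2, which can activate or repress targets, was at 36.75, 39.86 and 43.02 CPM in Primed WT and 6.80, 7.48 and 8.15 in NaiveCult WT, 4.79-fold lower (log2 -2.26, SE 0.082, adjusted p = 6.1e-12). TCF7 went the other way, from 3.51, 3.91 and 4.21 CPM to 6.73, 5.41 and 7.0, a 1.83-fold higher level (adjusted p = 3.0e-06). LEF1 did not pass (log2 -0.23, SE 0.67, adjusted p = 0.76).

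The feedback genes also split. AXIN2, the scaffold of the destruction complex, was at 19.35, 23.67 and 21.25 CPM in Primed WT and 84.85, 69.76 and 83.78 in NaiveCult WT, 4.12-fold higher without overlap (log2 2.04, SE 0.079, adjusted p = 1.1e-11). NKD1, which binds Dishevelled, was at 24.13, 24.99 and 26.07 CPM and then at 5.46, 5.37 and 5.43, 4.16-fold lower (log2 -2.06, SE 0.078, adjusted p = 9.5e-12). So 2 genes known as WNT targets differed in opposite directions by similar sizes. The ligase RNF43 was 1.51-fold higher (7.74, 7.27 and 8.03 CPM against 10.27, 10.04 and 11.10, adjusted p = 5.4e-05) and its relative ZNRF3 was 1.30-fold higher (44.82, 47.88 and 45.92 against 57.59, 48.06 and 55.89, adjusted p = 4.7e-05). SP5 was at 3.53, 2.17 and 2.12 CPM in Primed WT and 1.98, 0.697 and 1.46 in NaiveCult WT, called lower by 1.70-fold (SE of log2 0.31, adjusted p = 0.033). Its call was lost without Primed WT replicate 1 (log2 -0.48, adjusted p = 0.163), without NaiveCult WT replicate 2 (-0.45, 0.13) or replicate 3 (-0.80, 0.0625), and with only the 6 libraries compared in the fit (-0.76, 0.0626).

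The second naive medium gave another arrangement of the same genes. PXGL WT was deposited under a different file-name series from Primed WT and NaiveCult WT, so medium and series cannot be told apart in both comparisons. Against Primed WT, 3 members were higher (43.1% of genes were) and 2 lower (44.4% of genes were). Against NaiveCult WT, 6 were higher (35.7% of genes) and 1 lower (34.9%). The members' median log2 fold change was 0.05 against Primed WT and 1.17 against NaiveCult WT, beside -0.03 and 0.00 for all genes.

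TCF7L1 was at 22.01, 20.48 and 19.96 CPM in PXGL WT, overlapping the Primed WT range, and did not pass against it (log2 -0.11, SE 0.13, adjusted p = 0.42) unless library totals were the only scaling (-0.32, adjusted p = 0.0328), while it was 19.8-fold higher than in NaiveCult WT (log2 4.31, SE 0.17, adjusted p = 7.3e-11). TCF7L2, at 25.23, 23.44 and 25.05 CPM, lay between the other groups, 1.41-fold below Primed WT (adjusted p = 2.7e-05) and 3.41-fold above NaiveCult WT (adjusted p = 3.0e-10). NKD1, at 18.26, 16.38 and 18.09 CPM, did likewise, 1.23-fold below Primed WT (adjusted p = 0.0011) and 3.37-fold above NaiveCult WT (adjusted p = 2.0e-10).

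TCF7 was highest in PXGL WT, at 36.59, 34.73 and 35.71 CPM, 10.6-fold above Primed WT (log2 3.41, SE 0.10, adjusted p = 5.8e-13) and 5.81-fold above NaiveCult WT (adjusted p = 5.2e-11). ZNRF3, at 118.7, 113.0 and 118.6 CPM, was 2.92-fold above Primed WT (adjusted p = 9.1e-12) and 2.25-fold above NaiveCult WT (adjusted p = 6.9e-10). For these 2 genes the fold between the naive media was greater than the fold between NaiveCult WT and Primed WT, a contrast that was not tested. AXIN2 was at 89.96, 90.03 and 88.20 CPM, 4.82-fold above Primed WT (adjusted p = 2.9e-12). Its 1.17-fold difference from NaiveCult WT (adjusted p = 0.015) was lost without NaiveCult WT replicate 2 (log2 0.15, adjusted p = 0.0593) and with library totals as the only scaling (0.17, 0.0683). AXIN2 also passed against NaiveCult WT with siScr in place of PXGL WT (0.485, 4.3e-05) and with CRISPRi XIST UT in its place (0.377, 6.7e-04).

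RNF43, at 6.74, 7.18 and 6.75 CPM in PXGL WT, was 1.46-fold below NaiveCult WT (adjusted p = 1.8e-04), and did not pass against Primed WT (log2 0.05, adjusted p = 0.65). The PXGL controls did not share 1 level of it. The siScr libraries were at 13.65, 12.58 and 13.00 CPM and the CRISPRi XIST UT libraries at 6.21, 6.09 and 6.09. With siScr in place of PXGL WT, RNF43 was above NaiveCult WT (log2 0.43, adjusted p = 0.00104) and above Primed WT (1.05, 8.5e-08). SP5 behaved alike, at 2.15, 1.56 and 1.76 CPM in PXGL WT and 4.90, 5.72 and 5.0 in siScr, so levels of RNF43 and SP5 depend on which PXGL controls are used. The siScr cells were transfected and carry another file-name series, and these cannot be told apart. The group means of AXIN2, TCF7, TCF7L1, TCF7L2, NKD1 and ZNRF3 differed among the 3 control groups by at most 1.34-fold.

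**Figure D2:**
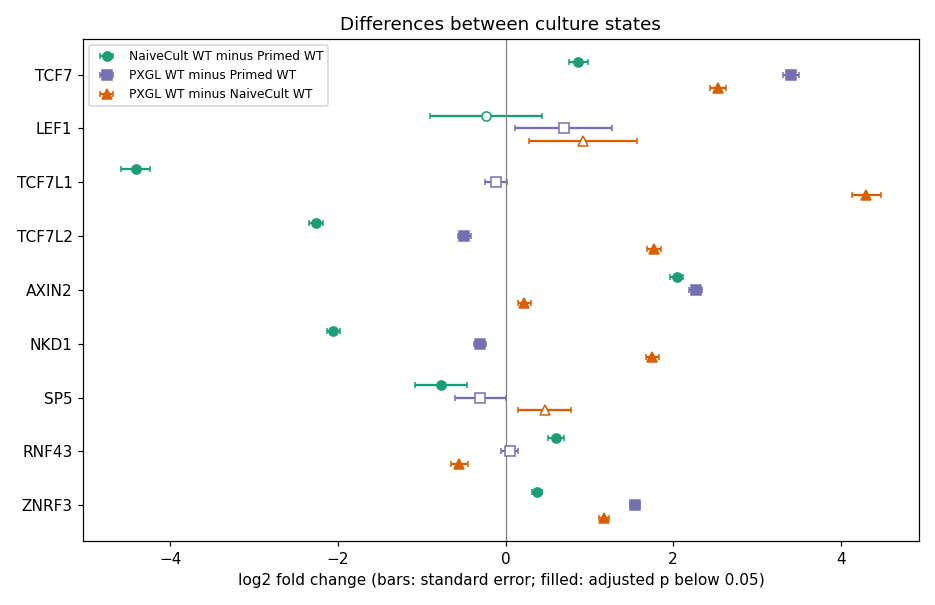
Log2 fold change (horizontal axis) of 9 genes between culture states, with standard errors as bars; filled symbols have an adjusted p below 0.05. TCF7L1 is at -4.42 for NaiveCult WT minus Primed WT and at 4.31 for PXGL WT minus NaiveCult WT, and AXIN2 is above 2 in both naive media.

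A wider list of 96 WNT pathway genes gave the setting. Of 88 tested in NaiveCult WT against Primed WT, 43 were higher and 39 lower, where 42.5% and 43.0% of all genes were, and in PXGL WT against Primed WT 48 were higher and 37 lower, where 43.1% and 44.4% were. The whole list thus stood near the background, and its classes are described below by their counts, with no test of a class. Of 16 ligands tested, 12 were higher and 3 lower in NaiveCult WT, with a median log2 fold change of 2.83, and 13 were higher and 3 lower in PXGL WT, with a median of 3.37. WNT3 averaged 0.00653 CPM in Primed WT, 1.57 in NaiveCult WT and 3.17 in PXGL WT. WNT6 had no count in Primed WT and averaged 2.93 and 0.478 CPM in the naive groups. WLS, which carries WNT proteins to the cell surface, was higher in NaiveCult WT (log2 2.71, adjusted p = 1.3e-10) and lower in PXGL WT (-0.40, 0.0171), while the ligand acylase PORCN was higher in both (1.42 and 1.14). The WLS mean was 2.76 CPM in Primed WT and 1.80 in PXGL WT, but 3.63 in CRISPRi XIST UT and 4.53 in siScr. The direction of WLS in PXGL cells thus depends on the control group used.

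Of 15 receptors tested, 9 were lower and 6 higher in each naive group, with medians of -0.66 and -0.61. Of all genes, 43.0% were lower and 42.5% higher in NaiveCult WT, and 44.4% and 43.1% in PXGL WT. ROR1 fell from a mean of 277.1 CPM in Primed WT to 0.279 and 0.256, as FZD2 did from 106.7 to 0.249 and 0.823. These were named for the size of their differences. FZD5 went the other way, at means of 184.3 CPM in Primed WT, 674.1 in NaiveCult WT and 1851 in PXGL WT. Of 13 extracellular inhibitors, 9 were lower and 3 higher in each, with medians of -2.61 and -2.29. SFRP2, a decoy for WNT ligands, averaged 212.8 CPM in Primed WT and 0.0075 and 0.0801 in the naive groups. WIF1 averaged 1.87 CPM in Primed WT and had no count in NaiveCult WT. KREMEN2, on the same list, rose from a mean of 3.96 CPM in Primed WT to 42.25 in NaiveCult WT and 51.98 in PXGL WT. Of 5 R-spondin and LGR genes tested, 3 were higher and 2 lower in each, among them RSPO3, at 0.0181, 2.0 and 0.248 CPM in Primed WT, NaiveCult WT and PXGL WT, and RSPO4, at 3.48, 0.0381 and 0.800.

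Inside the cell, 13 cytoplasmic genes split into 7 higher and 5 lower in NaiveCult WT, and 8 and 5 in PXGL WT. Of all genes, 42.5% were higher and 43.0% lower in NaiveCult WT, and 43.1% and 44.4% in PXGL WT. CTNNB1, which encodes β-catenin, was at 803.4, 377.8 and 174.9 CPM in Primed WT, NaiveCult WT and PXGL WT, lower in both naive groups (log2 -0.94 and -1.99, adjusted p = 3.8e-11 and 1.8e-14). The tankyrase TNKS was lower in both (-1.78 and -1.95), TNKS2 too (-0.52 and -0.58), and so was APC (-1.43 and -1.55). Of 12 nuclear cofactors, 9 were lower and 1 higher in NaiveCult WT, where 43.0% and 42.5% of all genes were. For PXGL WT 6 were lower and 6 higher, where 44.4% and 43.1% of genes were. PYGO1 (-3.00 and -3.16) and TLE2 (-2.38 and -2.67) were lower in both. Among other WNT targets, 9 of 12 tested were higher and 2 lower in NaiveCult WT, where 42.5% and 43.0% of all genes were. In PXGL WT 8 were higher and 2 lower, where 43.1% and 44.4% of genes were. MYC averaged 154.1 CPM in Primed WT, 18.24 in NaiveCult WT and 52.24 in PXGL WT, and CCND1 averaged 233.2, 118.9 and 157.9. CDX1 averaged 0.0196 CPM in Primed WT, 10.07 in NaiveCult WT and 5.54 in PXGL WT, and CDX2 averaged 0.0051, 5.10 and 4.41. Both genes also mark other lineages.

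SPEN, a co-repressor, was knocked down to ask about its part in naive cells. Of 9 members tested, siSPEN1 against siScr had 2 higher (20.8% of 16448 genes were) and 4 lower (22.9%). For siSPEN2 2 were higher (20.5%) and 5 lower (20.7%). The members' median log2 fold change was 0.06 with siSPEN1 and -0.48 with siSPEN2, beside -0.0005 and -0.0048 for all genes. Both mixes are compared with the same 3 siScr libraries, so their results are not independent. The 6 primed markers summed to 168.2 to 175.9 CPM in siScr, 82.14 to 87.34 in siSPEN1 and 109.7 to 116.7 in siSPEN2, with none at 0. That sum was mostly CD24, at means of 131.9, 51.21 and 58.97 CPM. Of the 4 markers tested, CD24 and SALL2 were lower with siSPEN1 and none higher, while with siSPEN2 CD24 was lower and SALL2 and ZIC2 were higher, with a median log2 fold change of 0.35. The part of these markers in the differences was not tested.

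RNF43 had the largest difference. It was at 13.65, 12.58 and 13.00 CPM in siScr, 2.82, 3.01 and 2.91 in siSPEN1 and 4.96, 5.23 and 4.72 in siSPEN2, and the groups did not overlap. It was 4.46-fold lower with siSPEN1 (log2 -2.16, SE 0.11, adjusted p = 1.4e-12) and 2.65-fold lower with siSPEN2 (-1.40, SE 0.096, adjusted p = 2.6e-10). Against PXGL WT in place of siScr it was still lower, by smaller amounts (log2 -1.14, adjusted p = 4.0e-08, and -0.39, adjusted p = 0.00277). The fall is therefore measured against a control that stood above the other PXGL controls.

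TCF7L2 was at 20.36, 19.56 and 19.31 CPM in siScr, 9.92, 11.16 and 11.76 in siSPEN1 and 10.28, 11.62 and 12.22 in siSPEN2. It was 1.79-fold and 1.75-fold lower (log2 -0.84 and -0.80, adjusted p = 5.3e-08 and 9.2e-08), and lower than PXGL WT too (-1.07 and -1.03). TCF7L1, at 25.57, 21.82 and 20.35 CPM in siScr, was at 14.24, 13.85 and 17.76 in siSPEN1 and 13.89, 17.57 and 17.51 in siSPEN2, with no overlap. It was 1.46-fold and 1.39-fold lower (adjusted p = 1.5e-04 and 5.6e-04), and lower than PXGL WT (log2 -0.34 and -0.27, adjusted p = 0.0026 and 0.0113).

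NKD1 was at 16.98, 13.44 and 15.31 CPM in siScr, 18.84, 16.32 and 17.78 in siSPEN1 and 26.24, 24.37 and 24.69 in siSPEN2. With siSPEN2 it was 1.64-fold higher (log2 0.71, SE 0.082, adjusted p = 5.4e-07). With siSPEN1 its libraries overlapped those of siScr, and the 1.17-fold call (adjusted p = 0.036) was lost in 4 of the 6 fits without 1 library and against PXGL WT (log2 0.10, adjusted p = 0.203). SP5 was lower than siScr with both mixes (log2 -0.38, adjusted p = 0.025, and -0.78, adjusted p = 8.6e-05) but higher than PXGL WT (1.21, adjusted p = 1.9e-06, and 0.81, adjusted p = 2.1e-04), so its direction turns with the control. The siSPEN1 call of SP5 was lost without siScr replicate 2 or siSPEN1 replicate 1 or 3 (adjusted p = 0.0531 to 0.137). ZNRF3 was 1.10-fold higher with siSPEN1 (adjusted p = 0.018) and 1.11-fold lower with siSPEN2 (adjusted p = 0.014). Leaving out siScr replicate 1 or siSPEN1 replicate 1 ended the first of these calls (log2 0.12 in each, adjusted p = 0.0724 and 0.0713), and leaving out siScr replicate 2 or 3 or siSPEN2 replicate 3 ended the second (-0.13 to -0.14). Against PXGL WT the siSPEN2 call of ZNRF3 was lost (log2 -0.009, adjusted p = 0.868) and the siSPEN1 call was not (0.28, adjusted p = 1.2e-05). TCF7 was 1.15-fold higher with siSPEN2 (adjusted p = 0.0081), a call lost against PXGL WT (log2 0.04, adjusted p = 0.494) and without siSPEN2 replicate 3 (0.17, 0.0521). AXIN2 did not pass against siScr with either mix (log2 0.06 and 0.08, adjusted p = 0.3 and 0.17), but was higher than PXGL WT with both (0.36, adjusted p = 3.9e-07, and 0.38, adjusted p = 2.0e-07).

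The mixes were also compared directly. siSPEN2 against siSPEN1 had RNF43 and NKD1 higher (18.3% of genes) and ZNRF3 and SP5 lower (16.3%). The wider list had 22 of 80 tested genes higher and 22 lower with siSPEN1, where 20.8% and 22.9% of all genes were, and 30 and 14 with siSPEN2, where 20.5% and 20.7% were.

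**Figure D3:**
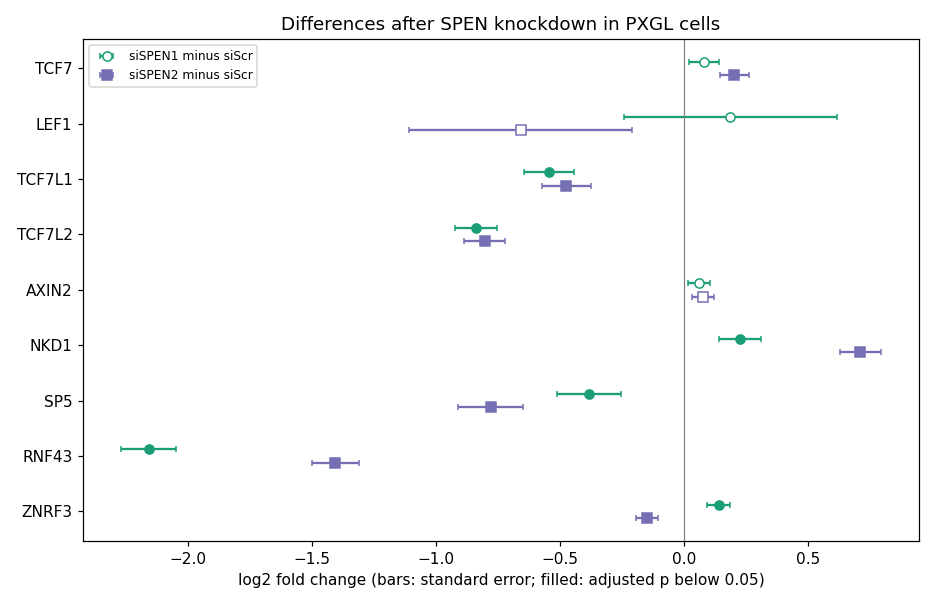
Log2 fold change (horizontal axis) of 9 genes in siSPEN1 and siSPEN2 against siScr, with standard errors as bars; filled symbols have an adjusted p below 0.05. RNF43 is lowest for both mixes, at -2.16 and -1.40, and TCF7L2 is at -0.84 and -0.80.

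XIST is the long non-coding RNA that coats the X chromosome, and its deletion and its doxycycline-induced repression were each compared with a control in PXGL cells. For XIST KO against PXGL WT 3 members were higher (13.3% of 16877 genes were) and 3 lower (12.6%), each by at most 1.41-fold. TCF7L2 was at 25.23, 23.44 and 25.05 CPM in PXGL WT and 17.44, 20.04 and 18.54 in XIST KO, 1.31-fold lower (log2 -0.39, SE 0.049, adjusted p = 1.2e-06). AXIN2 was 1.11-fold higher (98.64, 98.82 and 99.03 CPM against 89.96, 90.03 and 88.20, adjusted p = 9.6e-05), NKD1 1.16-fold higher (20.22, 21.09 and 19.61 against 18.26, 16.38 and 18.09, adjusted p = 0.0026) and SP5 1.41-fold higher (adjusted p = 0.018). RNF43 and ZNRF3 were 1.19-fold and 1.06-fold lower (adjusted p = 0.037 and 0.024). Of these 6 calls, the fits without 1 library lost that of RNF43 in 5 of 6, that of ZNRF3 in 4 and that of SP5 in 3, and with all 30 libraries in 1 fit TCF7L2 alone passed (adjusted p = 0.00351). The KO libraries are technical replicates of 1 clone, so the clone and the deletion cannot be told apart and the spread between separate cultures of it was not measured. The common biological coefficient of variation of this fit was 0.0254, the lowest of the 5 fits (0.0254 to 0.0842). The wider list had 18 of 81 tested genes higher and 12 lower, where 13.3% and 12.6% of all genes were.

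For CRISPRi XIST Dox against CRISPRi XIST UT 1 member was higher (17.2% of 16693 genes) and 2 lower (14.4%). The wider list had 19 of 80 tested genes higher and 21 lower. Its 13 ligands tested had 0 higher and 6 lower, and its 15 receptors 8 higher and 1 lower. Doxycycline, induced dCas9-KRAB and lower XIST went together here and cannot be told apart. The paper names a doxycycline effect as the likely reason for more changed genes here than in XIST KO. TCF7L2 was at 18.53, 17.80 and 18.64 CPM without and 10.78, 15.37 and 12.75 with doxycycline, 1.43-fold lower (log2 -0.51, SE 0.11, adjusted p = 0.0034). TCF7L1 was 1.21-fold higher (18.88, 19.63 and 17.77 against 21.65, 24.81 and 22.14 CPM, adjusted p = 0.016), a call lost without CRISPRi XIST UT replicate 1 or 3 (adjusted p = 0.0567 and 0.0741). NKD1 was 1.16-fold lower at adjusted p = 0.0499, a call lost in 4 of the 6 fits without 1 library. TCF7L2 was lower in both XIST comparisons, and their controls did not share 1 level of it. It was at 17.80 to 18.64 CPM in CRISPRi XIST UT, 23.44 to 25.23 in PXGL WT and 17.44 to 20.04 in XIST KO. The cause of these differences was not tested. The 6 mesendoderm markers summed to 44.76 to 48.49 CPM without and 14.24 to 23.28 with doxycycline, with none at 0; of 5 tested, TBXT, GATA6 and MIXL1 were lower and none higher, and their part in these differences was not tested.

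XACT, another long non-coding RNA made from the X chromosome, is found on active X chromosomes in early human cells. In XACT KO against NaiveCult WT no member passed by edgeR, where 0.206% of 16472 genes were higher and 0.219% lower, and LEF1 was not tested. The lowest adjusted p was that of SP5, at 1.98, 0.697 and 1.46 CPM in NaiveCult WT and 2.04, 3.52 and 4.31 in XACT KO (log2 1.27, SE 0.32, adjusted p = 0.0683). AXIN2 followed, at 84.85, 69.76 and 83.78 CPM against 89.24, 94.92 and 103.1 (log2 0.28, adjusted p = 0.10). DESeq2 called SP5 and AXIN2 higher (adjusted p = 0.00733 and 0.0355). In edgeR 3 members, SP5, AXIN2 and TCF7L2, had an unadjusted p under 0.05. Without NaiveCult WT replicate 1, SP5 passed (log2 1.61, adjusted p = 0.0149). TCF7L1 stayed near 1 CPM in both groups (0.894, 1.27 and 1.43 in XACT KO). The wider list had 2 of 79 tested genes higher, both among the 12 other WNT targets tested, and 0 lower.

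**Figure D4:**
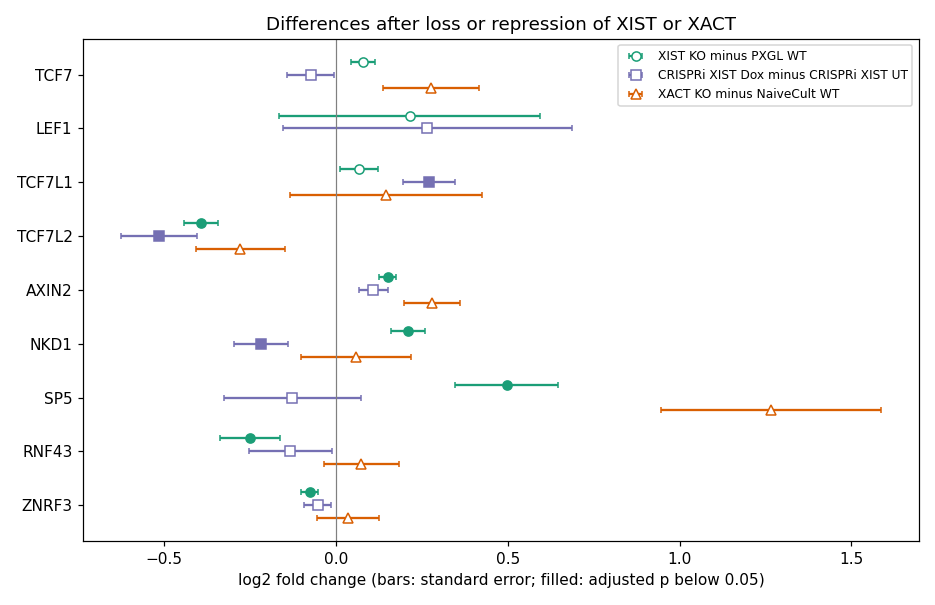
Log2 fold change (horizontal axis) of 9 genes in XIST KO, CRISPRi XIST Dox and XACT KO against their controls, with standard errors as bars; filled symbols have an adjusted p below 0.05. TCF7L2 is below 0 in all 3 and filled in the XIST comparisons, and SP5 in XACT KO is at 1.27 with an open symbol.

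Across the 30 libraries, TCF7 and ZNRF3 had the most similar log2 levels of any pair of members (Pearson r = 0.976), followed by TCF7L1 and NKD1 (r = 0.922). These points share library, medium and file-name series and describe differences among the 10 groups more than variation within them. Among 14725 genes with a mean of at least 1 CPM, those most like AXIN2 were CDH5, GALNT6, NCEH1, TFCP2L1 and SLC66A2 (r = 0.99 each), and those most like TCF7L1 were ARHGAP32, PCLO, TMEM268, TCF3 and HCN4 (r = 0.977 to 0.982). LEF1 lay below that level and was given no such list.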

How the data were processed

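Total RNA of 30 H9 libraries was depleted of ribosomal RNA and sequenced with a stranded kit. The authors deposited raw counts per gene, as whole numbers: per the study's methods and the submitters' processing notes, reads were trimmed (Trim Galore 0.6.5), aligned to hg38 and mm10 (Bowtie2), deduplicated (Picard 2.23.5), cleared of mouse feeder reads and counted over exons on the matching strand (HTSeq 0.13.5). Reads shared by overlapping exons were not counted, and removing duplicates can compress the highest counts. Depth was 31190052 to 65637976 counts per library.

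Groups came from the labels. Levels are CPM of the library total. Differences were tested with edgeR 4.0.16 in R 4.3.3 (quasi-likelihood F-test, TMM factors, filterByExpr with a minimum count of 10 and a minimum total of 15, Benjamini-Hochberg adjustment over all genes tested, threshold 0.05). The culture states and the SPEN libraries were each fitted as 9 libraries, and the other comparisons as 6. Standard errors were derived from the F statistic and the fitted difference. The fits were tested on simulated data. Alternatives were other size factors, DESeq2 1.42.0, other filters, a fold threshold, a replicate block, other sets of libraries and leaving out each library. Exchanging the PXGL control groups was added after the data were seen. The members, gene lists and naming rule (all members, and the 2 genes of each pathway class with the largest difference in NaiveCult WT against Primed WT that passed, plus TNKS, TNKS2 and CTNNB1) were chosen with earlier results of these data known. MYC, CCND1, FZD5 and KREMEN2 were named in addition to this rule. An exact permutation test of 3 libraries against 3 cannot go below p = 0.1, so none is given.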

Additional observations from a re-analysis of the deposited data

Results flagged for a closer look

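4 members differed between the 2 SPEN siRNA mixes in the direct comparison of siSPEN2 with siSPEN1 (edgeR, adjusted over all genes tested). RNF43 was higher with siSPEN2 by 0.753 on the log2 scale (SE 0.11, adjusted p = 1.9e-05), and its 3 libraries lay above those of siSPEN1. NKD1 was higher by 0.486 (SE 0.082, adjusted p = 8.3e-05), also without overlap. ZNRF3 had a log2 difference of -0.289 (SE 0.047, adjusted p = 4.9e-05) and SP5 one of -0.397 (SE 0.14, adjusted p = 0.032). The SP5 difference did not pass without siSPEN1 replicate 2 or 3 or without siSPEN2 replicate 1 or 3 (adjusted p = 0.0549 to 0.149). SPEN itself was at 151.7 to 177.0 CPM in siSPEN1 and 152.2 to 166.7 in siSPEN2.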

How the results depend on the processing

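Of 1228 values of single members under an alternative, 1091 kept their direction and their side of the threshold, 92 lost the call, 21 gained one and 24 changed sign. Counts of members under an alternative are given below without the share of all genes called in the same fit. They describe how the members' calls moved and are not a result about the members as a set. In the state comparisons TCF7L2, NKD1, TCF7 and ZNRF3 kept their calls under the RLE and library-total scalings, both other filters and DESeq2, and so did TCF7L1 other than in PXGL WT against Primed WT, where it gained a call with library totals (-0.318, adjusted p = 0.0328). Requiring a log2 fold change above 1 or below -1 left 1 member higher in NaiveCult WT against Primed WT, 0 lower in PXGL WT against Primed WT or NaiveCult WT, 0 higher and 1 lower for each SPEN mix, and 0 in either direction for siSPEN2 against siSPEN1 and both XIST comparisons. Fitting all 30 libraries gave 1 higher for siSPEN1, 1 lower for siSPEN2 against siSPEN1, 3 higher for XACT KO, 0 higher and 1 lower for XIST KO, and 0 higher and 1 lower for CRISPRi XIST Dox. With only the 6 libraries compared, siSPEN1 had 1 higher. In XACT KO, 2 were higher with no filter or with DESeq2. In CRISPRi XIST Dox, library totals gave 2 higher and 1 lower, and no filter gave 1 lower.

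Libraries of equal replicate number did not deviate alike (correlations of their deviations -0.0676 to 0.0852), and they were not treated as pairs. The paper shows its CRISPRi clones both untreated and treated with doxycycline. The labels do not say which replicate is which clone. The correlations cannot show whether clones were matched, and pairing by clone was not tested. With the replicate number as a block, 1 member was higher in XACT KO and 1 lower in CRISPRi XIST Dox, and no other count moved by over 1.5 times.

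With siScr in place of PXGL WT, 6 members were higher than Primed WT and 0 lower than NaiveCult WT; SP5 (1.29) and TCF7L1 (0.086) against Primed WT and RNF43 (0.43) against NaiveCult WT changed sign. With CRISPRi XIST UT in its place RNF43 against Primed WT was -0.078, and with library totals -0.16. With PXGL WT in place of siScr, 4 members were higher with siSPEN1 and 3 lower with siSPEN2; SP5 (1.21 and 0.81), TCF7 with siSPEN1 (-0.08) and LEF1 with siSPEN2 (0.19) changed sign. The cause was not tested.

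Without 1 library, the counts of members higher and lower ranged over 4 to 4 and 3 to 4 for NaiveCult WT against Primed WT, 3 to 3 and 2 to 2 for PXGL WT against Primed WT, 5 to 7 and 1 to 1 for PXGL WT against NaiveCult WT, 0 to 2 and 3 to 4 for siSPEN1, 1 to 2 and 4 to 5 for siSPEN2, 2 to 2 and 1 to 2 for siSPEN2 against siSPEN1, 0 to 1 and 0 to 0 for XACT KO, 2 to 3 and 1 to 2 for XIST KO, and 0 to 2 and 1 to 2 for CRISPRi XIST Dox. No value that changed sign without 1 library was called. These were LEF1 in NaiveCult WT against Primed WT (-1.562 to 0.253 over the fits), in siSPEN1 (-0.184 to 0.714) and in XIST KO (-0.023 to 0.397), AXIN2 (-0.003 to 0.036) and TCF7L2 (-0.029 to 0.092) in siSPEN2 against siSPEN1, ZNRF3 (-0.037 to 0.114) and NKD1 (-0.079 to 0.225) in XACT KO, and SP5 (-0.265 to 0.020) in CRISPRi XIST Dox. LEF1 and SP5 passed in PXGL WT against NaiveCult WT without NaiveCult WT replicate 3 (2.26, adjusted p = 0.0175) and replicate 1 (0.81, 0.045), and AXIN2 in CRISPRi XIST Dox without its replicate 2 (0.13, 0.0319). The low counts of LEF1 and LGR5 limit what can be said of them, and the smallest detectable difference was not computed. LEF1 was called higher with siScr in place of PXGL WT, against Primed WT (log2 1.54, adjusted p = 0.0308) and NaiveCult WT (1.74, 0.0319). It was also called higher in siSPEN1 with PXGL WT in place of siScr (1.04, 0.0284).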
